A study of Homo sapiens with 12 samples.

Results

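The neurotrophins are secreted growth factors, and the genes described here encode 2 of them, BDNF and NTF3, with the receptors and co-receptors through which the family acts: the p75 receptor NGFR, the TRK receptors NTRK2 and NTRK3, the sortilin-type receptors SORT1 and SORCS2, and the NGFR-related gene NRADD. They were chosen by name, with earlier results of these libraries known, and make up 8 of the 60675 Ensembl gene IDs in the deposited table. SW1783 is a line of human astrocytoma cells, and its RNA was sequenced in 12 libraries, 3 for each of 4 groups, after 24 h of exposure. Vehicle cells were given PBS containing 2% DMSO. Treated cells were given an aqueous extract of Aconitum carmichaeli Debeaux (ACD) root at 20 (low), 100 (medium) or 500 µg/mL (high dose). The extract stock was made in the same solution of PBS with 2% DMSO. By the study's methods a small volume of extract was added to the culture medium, so 2% is not the DMSO content around the cells. Titles and treatment labels name ACD, whereas another herb is described in the treatment protocol kept with the samples, and the titles were followed. All 3 dose comparisons share the same 3 vehicle libraries.

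Neurotrophins are made as precursors. The mature forms bind TRK receptor tyrosine kinases (BDNF and NTF4 bind NTRK2, and NTF3 binds mainly NTRK3), whereas the precursors bind NGFR together with a sortilin-type receptor. NGFR is a member of the TNF receptor superfamily with an intracellular death domain, and in nervous tissue the TRK arm is known for survival and growth signals and the NGFR arm for survival or death depending on its partners. NRADD was given in the annotation as NRADDP, a transcribed unitary pseudogene, while the other 7 genes matched by their own symbols.

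Total counts per library lay between 18863863 and 24200576. Levels of a gene are given as normalised read counts, which are counts divided by the size factor of their library, and changes as the log2 fold change of DESeq2 with its standard error (SE). A differentially expressed gene (DEG) had an adjusted p under 0.05 and a fold change over 1.5. Since the 8 genes were chosen with results known, their levels and changes are a description without a test. The astrocyte label was checked against 7 astrocyte markers: AQP4 was at 0 in every library, GFAP, S100B and ALDH1L1 had at most 6 counts in any library, and 2 of the 7, SLC1A3 and GJA1, had a mean of at least 10. The 7 summed to 5513 to 5779 normalised counts in the vehicle libraries and 3841 to 3873 at the high dose, and SLC1A3 fell from means of 690 to 359 with the medium dose and to 126 with the high dose (log2 fold change -2.45, SE 0.107, adjusted p = 3.85e-115 in DESeq2).

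Some marker lists of other cell types moved with dose as well, and their part in the changes given below was not tested. Schwann cell and neural crest markers, which stand for cells that carry NGFR, summed to 15.6 to 26.3 normalised counts in vehicle and 11.7 to 24.3 at the high dose, with SOX10 at 0 in every library. The 4 oligodendrocyte markers summed to 134 to 165 in vehicle and 278 to 285 at the high dose, where OLIG2 (15.2-fold from a mean of 1.56, adjusted p = 6.63e-06 in DESeq2) and MBP (1.8-fold, adjusted p = 8.60e-10) rose, while MAG was at 0 throughout. Lower sums at the high dose were seen for neuronal markers (3634 to 3813 in vehicle, 2050 to 2086 at the high dose), microglial markers (335 to 348, then 101 to 142) and mesenchymal markers (70815 to 74158, then 17616 to 18790). Of these, SNAP25, TUBB3, PTPRC, CSF1R, COL1A1, PDGFRB and LUM were DEGs that fell, and the neuronal marker MAP2 was a DEG that rose. COL1A1 made up most of the mesenchymal sum, with means of 69316 in vehicle and 16559 at the high dose. DCN was lower within the fold threshold (log2 fold change -0.41, SE 0.106). TUBB3 was the largest part of the neuronal sum in vehicle (mean 2212, then 707). SYT1, also neuronal, rose within the fold threshold (0.44, SE 0.0679, adjusted p = 3.63e-10 in DESeq2). The general astrocytoma markers VIM, NES and CD44 summed to 142221 to 149915 in vehicle and 151036 to 152709 at the high dose. NES was lower (log2 fold change -1.72, SE 0.16). VIM, the largest part of that sum, was higher (0.29, SE 0.0286) and CD44 lower (-0.38, SE 0.02), both within the fold threshold. The 3 endothelial markers summed to 15.4 to 21 in vehicle and 7.21 to 18.5 at the high dose. SW1783 is a cultured line, so these lists name marker genes and do not show that such cells were present. The microglial markers AIF1 and P2RY12, for example, had at most 1 count in any library. Fewer cells with a marker and less RNA per cell cannot be told apart in such bulk samples.

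Promoter windows of 250 bases before a transcript start were matched in RefSeq (GRCh38.p14) for 5 of the 8 genes, BDNF, NTF3, NTRK2, NTRK3 and SORT1, giving 14 windows. The outermost windows of BDNF and SORT1 are printed because these genes had the highest levels per length of the group in vehicle cells and were lower at the high dose. Both are on the minus strand, BDNF at chr11:27722031-27722280 and SORT1 at chr1:109397919-109398168. Capitals mark the GC box (GGGCGG) and the CCAAT box (CCAAT), searched on both strands.

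BDNF: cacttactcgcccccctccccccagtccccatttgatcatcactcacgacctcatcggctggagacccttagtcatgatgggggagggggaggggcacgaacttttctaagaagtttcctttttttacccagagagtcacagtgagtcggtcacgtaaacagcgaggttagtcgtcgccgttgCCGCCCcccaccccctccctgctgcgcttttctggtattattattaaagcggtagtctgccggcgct
SORT1: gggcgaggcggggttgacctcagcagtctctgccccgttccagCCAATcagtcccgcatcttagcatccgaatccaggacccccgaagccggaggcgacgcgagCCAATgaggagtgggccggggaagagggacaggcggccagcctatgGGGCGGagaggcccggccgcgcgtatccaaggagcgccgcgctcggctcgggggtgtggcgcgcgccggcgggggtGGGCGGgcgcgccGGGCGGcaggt

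The BDNF window held 1 GC box and no CCAAT box, with a GC content of 56%. The SORT1 window held 3 GC boxes and 2 CCAAT boxes at a GC content of 74%, against a median of 58% over 35116 promoter windows of the same length. Of all those windows, 42.6% held a GC box and 32% a CCAAT box. Motifs of stress and activity signalling were also searched: the cyclic AMP response element (CRE, TGACGTCA), the AP-1 element (TGANTCA) and the C/EBP-ATF response element (CARE, TGATGNAA). None of these 3 was found in any of the 14 windows, and they occur in 1.65%, 6.57% and 3.14% of all windows. A match or its absence is a property of the letters in these windows only.

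NGFR (ENSG00000064300, chromosome 17, 49495293 to 49515008, plus strand) was the single gene of the group that met the DEG thresholds. In the vehicle libraries it had 24.6, 24.5 and 21.9 normalised counts, and at the low dose 35.6, 34.7 and 23.0. The medium dose libraries had 84.6, 82.9 and 89.5, and the high dose libraries 614, 723 and 653. The low dose range overlapped that of vehicle, whereas every medium dose library lay above both and every high dose library above all 9 others. The log2 fold change against vehicle was 0.40 (SE 0.251, n = 3 per group) at the low dose, with a 95% interval from -0.09 to 0.89. With the medium dose it was 1.85 (SE 0.22), or 3.62-fold, and with the high dose 4.81 (SE 0.203), or 28-fold. Between the medium and high doses the level differed 7.74-fold, with a log2 fold change of 2.95 (SE 0.145).

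NGFR exons overlap genes on the opposite strand over 27.2% of their bases, and whether reads were counted by strand is not given in the sources used here. The partners were almost silent: NGFR-AS1 had 5 counts over all 12 libraries and ENSG00000279036 had 1, against 2453 for NGFR. The 2 nearest genes on either side of NGFR with a mean of at least 10 normalised counts were EIF4EP2, PHB1, NXPH3 and SPOP, 60.9 to 83.9 kb away. Their log2 fold changes at the high dose were -0.60, -0.25, -0.61 and -0.03. None was a DEG, with adjusted p from DESeq2 of 0.267, 2.32e-12, 0.375 and 0.746, so PHB1 passed the test but not the fold threshold.

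**Figure D1:**
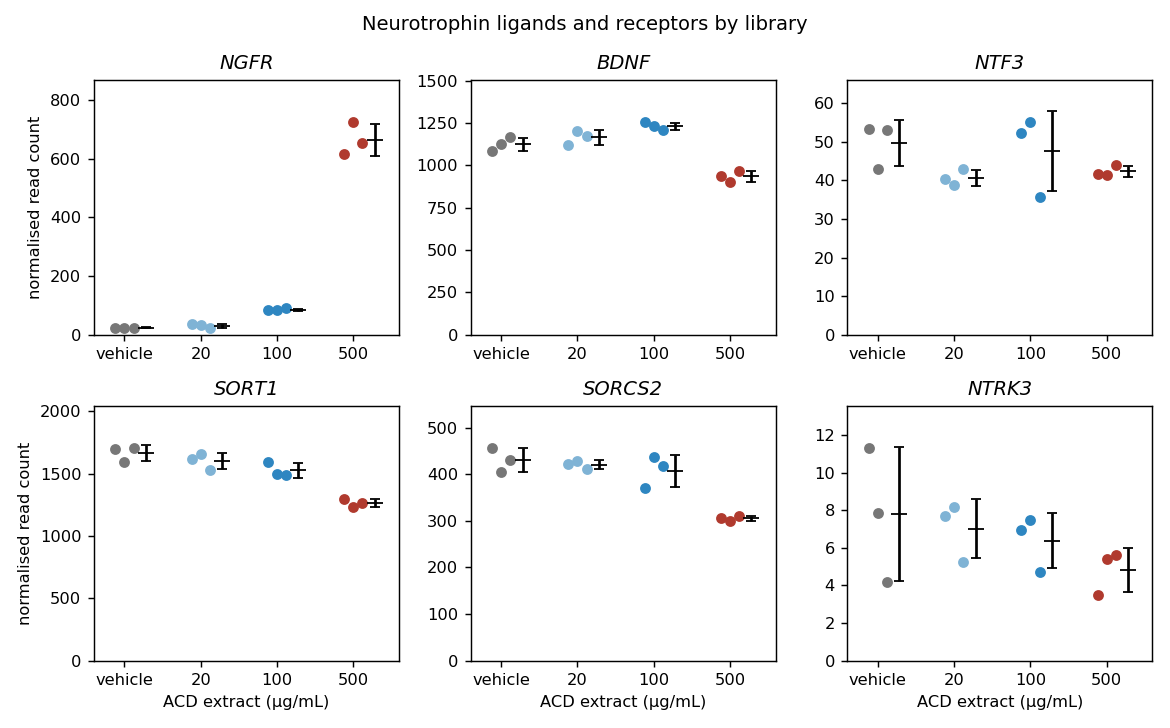
Normalised read counts of 6 genes (vertical axis, from 0) in each of the 12 libraries (points), by ACD dose in µg/mL, with the mean ± SD of 3 libraries beside them. NGFR goes from 21.9 to 24.6 in the vehicle libraries to 614 to 723 at the high dose, whereas BDNF, SORT1 and SORCS2 sit below their vehicle range at the high dose and NTF3 and NTRK3 overlap it.

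The ligand BDNF (ENSG00000176697, chromosome 11, 27654893 to 27722058, minus strand), which acts on neuronal survival and synaptic plasticity, differed little from vehicle at the medium dose and was lower at the high dose. Its normalised counts were 1087, 1123 and 1164 in the vehicle libraries and 1119, 1205 and 1172 in the low dose libraries. Medium dose libraries had 1253, 1229 and 1209, and high dose libraries had 935, 900 and 968. The low dose range overlapped the vehicle range, all medium dose libraries lay above it and all high dose libraries below it. The log2 fold change was 0.05 (SE 0.0565), 0.13 (SE 0.0562) and -0.27 (SE 0.0577) in order of dose, and -0.40 (SE 0.0573) for high against medium. All were within the fold threshold, the medium dose value being 1.09-fold and without an adjusted p under 0.05 in DESeq2. How many of all genes lay above vehicle without overlap at the medium dose was not counted. BDNF-AS, which overlaps 12.8% of BDNF exon bases on the opposite strand, had 28.6 ± 7.41 (SD, n = 3) normalised counts in vehicle and 36.8 ± 2.21 at the high dose, a log2 fold change of 0.36 (SE 0.323, adjusted p = 0.395 in DESeq2).

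NTF3 (ENSG00000185652, chromosome 12, 5432108 to 5521536, plus strand), the ligand of NTRK3, was low in every group. The vehicle libraries had 53.3, 42.9 and 53.1 normalised counts and the low dose libraries 40.4, 38.8 and 42.9. At the medium dose the values were 52.2, 55 and 35.8, and 41.7, 41.4 and 44 were the values in the high dose libraries. The medium and high dose ranges overlapped that of vehicle, and the low dose libraries lay at or below its lowest value. The NTF3 change with the high dose was -0.23 on the log2 scale (SE 0.266, 95% interval from -0.75 to 0.29).

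NTRK2 and NTRK3, which carry the kinase signal of these ligands, were at the limit of detection. NTRK2 (ENSG00000148053, chromosome 9, 84668375 to 85095751, plus strand), the receptor of BDNF, had 1 count in vehicle replicate 2 and 0 in the other 11 libraries, and a count of 0 allows up to 3 counts in a library. NTRK3 (ENSG00000140538, chromosome 15, 87859751 to 88256791, minus strand) had 11, 9 and 4 counts in the vehicle libraries, 8, 8 and 5 in the low dose group, 6, 8 and 5 in the medium dose group and 3, 6 and 6 in the high dose group. The NTRK3 ranges of all 4 groups overlapped, and its change with the high dose was -0.67 on the log2 scale (SE 0.702, 95% interval from -2.05 to 0.70). NRADDP (ENSG00000236409, chromosome 3, 47010824 to 47013465, plus strand) had 2 counts in medium dose replicate 3 and 0 elsewhere. No difference in NTRK2 or NRADDP was detectable at this depth.

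The sortilin-type receptors, which sort proneurotrophins and pair with NGFR, were both lower at the high dose. SORT1 (ENSG00000134243, chromosome 1, 109309568 to 109397918, minus strand) had 1697, 1593 and 1704 normalised counts in vehicle, 1619, 1654 and 1527 in the low dose group, 1594, 1494 and 1491 in the medium dose group and 1298, 1236 and 1265 in the high dose group. The low and medium ranges overlapped vehicle, and the high dose libraries lay below those of every other group. The SORT1 log2 fold change was -0.06 (SE 0.0514), -0.13 (SE 0.0516) and -0.39 (SE 0.0524) in order of dose, the last being 23.9% below vehicle by the means, and -0.27 (SE 0.0529) for high against medium.

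SORCS2 (ENSG00000184985, chromosome 4, 7192538 to 7742836, plus strand), a relative of sortilin, had 456, 406 and 430 normalised counts in vehicle and 423, 429 and 411 at the low dose. The medium dose libraries had 370, 437 and 417, and those of the high dose 306, 300 and 311. As for SORT1, the high dose libraries alone stood clear of the vehicle range. The log2 fold change was -0.03 (SE 0.0922), -0.07 (SE 0.0925) and -0.49 (SE 0.0954), so SORCS2 was 29.0% below vehicle at the high dose and within the fold threshold. Against the medium dose its high dose value was -0.42 (SE 0.096).

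In DESeq2, 3 of the 8 genes had an adjusted p in the low dose comparison, 5 in the medium and 6 in the high dose comparison, the others having too few reads. NGFR, with a mean of 201, had none at the low dose, where the filter lay at a mean of 263. With NGFR alone meeting the thresholds, the count was 1 of 6 at the high dose, beside 18.2% of all 19453 genes tested. It was 1 of 5 at the medium dose, beside 3.81% of 14082 genes. For the low dose it was 0 of 3, beside 0.118% of 9304 genes, with 0 at an unadjusted p under 0.05, and edgeR also called 0. For high against medium dose it was 1 of 6, beside 10.2% of 16467 genes. BDNF, SORT1 and SORCS2 had means of at least 100 normalised counts in every group, and at the high dose all 3 lay below vehicle without overlap, beside 36.2% of the 11264 genes with such a mean over all libraries. The mean of NGFR passes that level through the high dose libraries alone, so it was left out of this count. The median log2 fold change of the 5 genes with a mean of at least 10 was -0.27 at the high dose, beside 0.00 over 15282 genes.

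**Figure D2:**
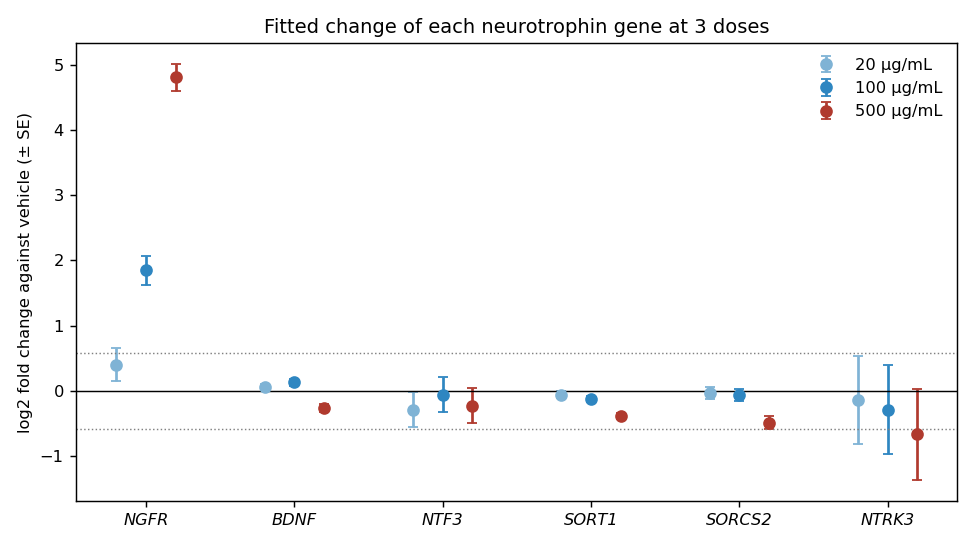
Log2 fold change against vehicle (vertical axis) of 6 genes at 20, 100 and 500 µg/mL, with bars of 1 SE from the fit to all 12 libraries and dotted lines at a 1.5-fold difference. NGFR alone passes the dotted line upwards, at 1.85 and 4.81, and SORT1 and SORCS2 reach -0.39 and -0.49 at the high dose. NTRK3, with at most 11 counts in a library, lies below the lower dotted line at the high dose, at -0.67 with a wide bar (SE 0.702).

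To compare genes with each other, counts were divided by the length of the longest transcript and scaled to the same sum in each library (TPM, the usual length-scaled unit, computed here). In vehicle cells SORT1 (34.4 ± 1.13, SD, n = 3) and BDNF (34.1 ± 0.952) were highest and did not differ beyond their spread, and SORCS2 (10.1 ± 0.589), NTF3 (5.36 ± 0.615) and NGFR (1.00 ± 0.0738) followed in clear steps. NGFR then stood at the 24.7th percentile of the 16148 protein-coding genes detected. At the high dose BDNF (25 ± 0.821), NGFR (24.8 ± 2.14) and SORT1 (23.1 ± 0.508) followed each other, with NGFR within 1 SD of both others and at the 64.8th percentile of 16070 genes. NTRK2 and NTRK3 together reached 0.0607 ± 0.0273 in vehicle and 0.0307 ± 0.00752 at the high dose, so NGFR was above their sum in every group. With the exon union as length, BDNF was 28.4 and SORT1 35.6 in vehicle, and these values no longer overlapped. At the high dose that length gave NGFR 26.7 ± 2.36, SORT1 23.2 ± 0.481 and BDNF 20.1 ± 0.631, so that NGFR was highest and beyond 1 SD of both. The TPM scale was used here to rank genes within a group and not to compare doses.

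NTF4, a further neurotrophin and a ligand of NTRK2, stands outside the chosen group and was tested in the same fit. NTF4 and the gene lists that follow were also chosen with earlier results of these data known. Their adjusted p-values and shares of DEGs are therefore a description and not independent evidence. NTF4 had 38.9, 40.3 and 43.7 normalised counts in vehicle and 18.5, 19.8 and 16.8 at the high dose, without overlap. It fell at the high dose (log2 fold change -1.15, SE 0.318, adjusted p = 0.000849 in DESeq2), with 28.3% of its exon bases overlapping genes on the opposite strand.

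Of 7 further ligands and receptors, 4 were tested at the high dose and 3 were DEGs (75%, beside 18.2% of all genes tested), RTN4R higher and NTF4 and SORL1 lower. RTN4R, the Nogo receptor that signals with NGFR, had 19.5, 14.9 and 12.5 normalised counts in vehicle and 48.6, 56.8 and 63.6 at the high dose (log2 fold change 1.86, SE 0.368, adjusted p = 1.94e-06 in DESeq2). SORL1, a sorting receptor related to SORT1 and SORCS2, had 1022 ± 45.6 (SD, n = 3) in vehicle and 604 ± 10.8 at the high dose (log2 fold change -0.76, SE 0.0644, adjusted p = 8.27e-31 in DESeq2). At the medium dose SORL1 passed the test (adjusted p = 3.51e-08 in DESeq2) but, at -0.37 (SE 0.0624), not the fold threshold. KIDINS220, a scaffold of TRK receptors and NGFR, had a log2 fold change of -0.10 (SE 0.044) at the high dose (adjusted p = 0.0566 in DESeq2). SORCS1, SORCS3 and LINGO1 were below 0.1 TPM in every group.

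The related genes were grouped in 9 lists, of which only some lie downstream of these receptors. The others hold further ligands and receptors, shedding and processing genes, regulators of BDNF, the GDNF family and TNF receptors. The 9 lists, with 94 genes in all and NTF4 and the others above included, gave 26 DEGs at the high dose. These were among 87 genes tested, 15 higher and 11 lower. This was 29.9%, beside 18.2% of all genes tested. The median log2 fold change was 0.06 over the 83 genes with a mean of at least 10 normalised counts, beside 0.00 over 15282 genes. All list medians given here are over genes with such a mean. At the medium dose 3 of 77 were DEGs, which is 3.9% beside 3.81% of all genes tested: TNFRSF10B was higher and PIK3R1 and TNFRSF19 lower. At the low dose 0 of 59 were DEGs by DESeq2, beside 0.118% of 9304 genes tested, and edgeR called 0 of 85. In DESeq2, 12 of the listed genes had an unadjusted p under 0.05. The share of all genes at that level was not counted. For high against medium dose, 17 of 85 were DEGs, 12 higher and 5 lower, which is 20% beside 10.2% of all genes tested.

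Among 11 intracellular partners of NGFR, 1 rose and 2 fell at the high dose, which is 27.3% beside 18.2% of all genes tested. RIPK2, a kinase that binds the death domain of NGFR, rose with a log2 fold change of 0.84 (SE 0.0818, adjusted p = 2.06e-23 in DESeq2). NDN (necdin) and MAGED1 (NRAGE), MAGE family proteins that bind NGFR, fell by 1.13 (SE 0.135, adjusted p = 4.41e-16 in DESeq2) and 0.93 (SE 0.0246) on the log2 scale, MAGED1 from 13659 to 7153 normalised counts. NDN had 286, 344 and 307 normalised counts in vehicle and 117, 134 and 174 at the high dose, so the groups did not overlap. The list had a median of 0.11, beside 0.00 over all genes.

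Receptor shedding and ligand processing were covered by 8 and 9 genes. ADAM17, a protease that cleaves NGFR and TRK receptors at the cell surface, had 943, 885 and 917 normalised counts in vehicle and 2163, 2152 and 2168 at the high dose, with no overlap (log2 fold change 1.24, SE 0.0508, adjusted p = 7.75e-130 in DESeq2). Genes on the opposite strand overlap 11.7% of ADAM17 exon bases. APH1B, a subunit of the gamma-secretase that cuts the remaining stub, rose by 0.86 (SE 0.134, adjusted p = 6.32e-10 in DESeq2), and the other 6 of the 8 were not DEGs, so that 25% were called beside 18.2% of all genes tested. Of the 9 genes of proneurotrophin processing, such as the convertase FURIN (log2 fold change -0.29, SE 0.0435), 0 were DEGs by DESeq2 at the high dose, beside 18.2% of all genes tested. In DESeq2, 5 had an unadjusted p under 0.05, and edgeR called 0 of 9.

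In the TRK signalling list, 4 of 24 genes were DEGs at the high dose, 2 in each direction. This is 16.7% beside 18.2% of all genes tested, a share near the background, and the median of the list was -0.01. FRS3, an adaptor of TRK receptors, rose with a log2 fold change of 1.19 (SE 0.222, adjusted p = 3.76e-07 in DESeq2), and RAPGEF1 by 0.69 (SE 0.0413). PIK3R1, the regulatory subunit of PI3-kinase, fell by 1.04 on the log2 scale (SE 0.0573, adjusted p = 2.06e-71 in DESeq2), and SHC3, a neuronal TRK adaptor, by 0.61 (SE 0.0694). PIK3R1 was also a DEG at the medium dose at -0.60 (SE 0.0551, adjusted p = 6.93e-26 in DESeq2), but without vehicle replicate 1 its value of -0.58 was under the fold threshold.

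Of 9 genes that TRK signalling is known to induce, 3 rose and 1 fell at the high dose (44.4%, beside 18.2% of all genes tested). The list median was 0.84 over the 8 with a mean of at least 10 normalised counts. DUSP6, a phosphatase of ERK kinases, rose with a log2 fold change of 1.42 (SE 0.0761, adjusted p = 7.41e-76 in DESeq2), from 440 to 1173 normalised counts by the means. Of its exon bases, 28.6% overlap genes on the opposite strand. NR4A1 (1.05, SE 0.161) and ARC (1.70, SE 0.46), which are activity-induced genes, rose as well. FOS, an immediate early gene, fell by 1.18 (SE 0.368, adjusted p = 0.00366 in DESeq2), with 37.9, 38.5 and 33.3 normalised counts in vehicle and 17.4, 12.6 and 18.7 at the high dose. In edgeR 6 of the 9 were called, adding FOSB and VGF, both higher.

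**Figure D3:**
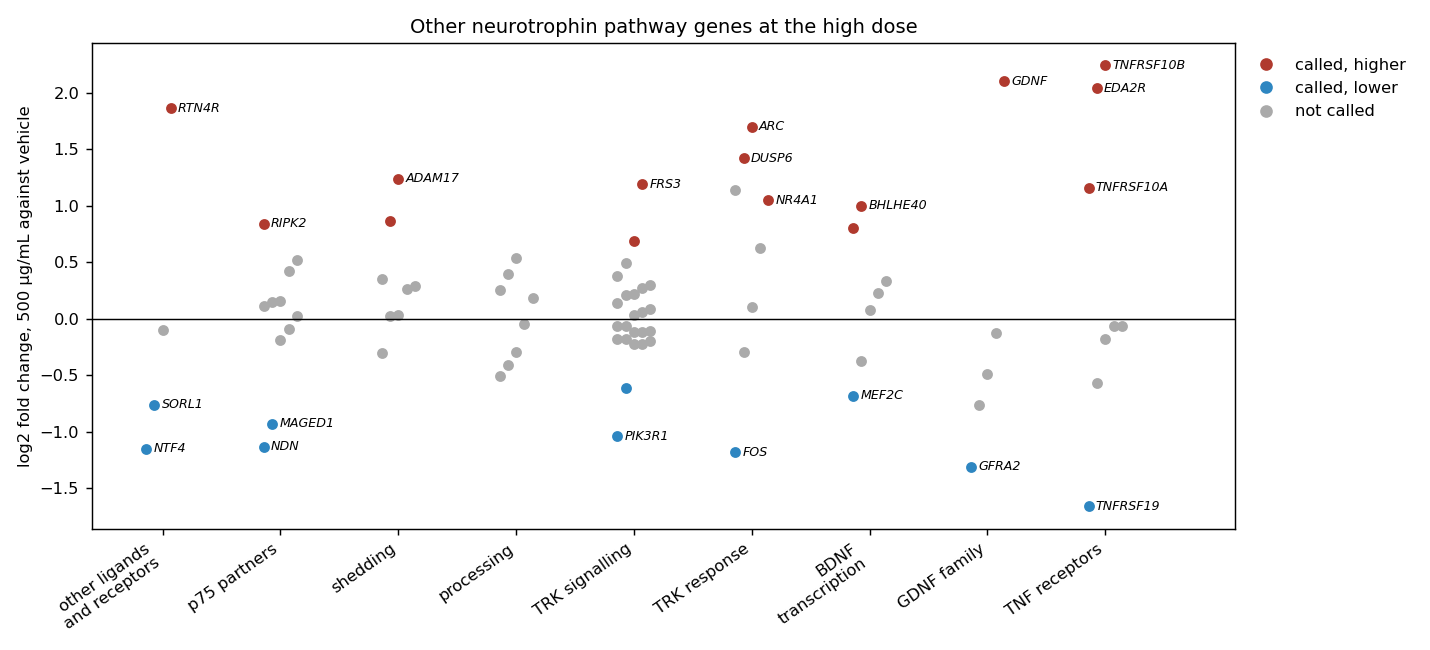
Log2 fold change at 500 µg/mL against vehicle (vertical axis) for the 83 pathway genes with a mean of at least 10 normalised counts, by list, coloured by whether the gene was a DEG. TNFRSF10B has the highest value, 2.24, and TNFRSF19 the lowest, -1.66, and most genes of the processing and TRK signalling lists lie near 0.

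The genes whose pattern was nearest to that of each of the 8 were found among 12387 genes with a mean of at least 50 normalised counts, by the distance between their log2 fold changes at the 3 doses (0 for an identical pattern). Nearest to NGFR was ATF3, a stress-induced transcription factor, at a distance of 0.148 with log2 fold changes of 0.27, 1.87 and 4.73. HKDC1, IL1A, CXCL2 and KCP followed at 0.629 to 0.83. Few genes change as much as NGFR, so its distances are not comparable with those of genes that change little. NGFR, with a vehicle mean of 23.7, passes the filter through its treated groups. Genes with rises of that size can pass in the same way, so the genes nearest to NGFR are not independent of the filter. For SORT1 the 3 nearest, all within 0.0165, were GEMIN4, DCTN3 and RBBP9, and for SORCS2 within 0.0189 they were SV2A, ADI1 and PTPRJ. For BDNF within 0.0552 they were ENSG00000258232, ALKBH8 and DNAH5. NTF3, NTRK2, NTRK3 and NRADDP had means under 50 and were not searched. All these distances rest on the same 12 libraries and the same vehicle group, and they are given as a description.

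The chromosomal surroundings were taken as the 2 nearest expressed genes on each side of each of the 8 genes. Of these 32 neighbours, 4 were DEGs at the high dose, all lower, which is 12.5% beside 18.2% of all genes tested. They were LGR4 and KIF18A beside BDNF (log2 fold changes -0.71, SE 0.0492, and -0.76, SE 0.0672), RMI1 beside NTRK2 (-0.72, SE 0.0766) and PSRC1 beside SORT1 (-1.18, SE 0.0959). PSMA5, which lies 1.12 kb from the SORT1 start on the other side, had a log2 fold change of 0.08 (SE 0.0428, adjusted p = 0.128 in DESeq2). The nearest gene above SORCS2 was AFAP1-AS1 at 11.2 kb, with -0.11 (SE 0.537, adjusted p = 0.895 in DESeq2).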

How the data were processed

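RNA from 12 libraries of SW1783 cells (4 groups, n = 3) was examined. The submitters' processing notes name FastQC 0.11.9, Trim Galore 0.6.5, STAR 2.7.3a and RSEM 1.3.3, and the study's methods give other versions of Trim Galore and STAR. The deposited table holds the authors' RSEM expected counts per gene on GRCh38, of which 8.75% were not whole. They were rounded here, and 0 columns were left over. Neither the labels nor the methods say whether replicates were separate cultures, so p-values measure the spread between these libraries, which may be technical.

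Symbols and coordinates (1-based) came from GENCODE v44 of GRCh38, which is later than the authors' annotation. GENCODE v44 held 56558 of the 60675 deposited IDs (93.2%). Differential expression was tested with DESeq2 1.42.0 (Wald test, two-sided) in R 4.3.3 on all 12 libraries with group as the term, with Benjamini-Hochberg adjustment over all genes and independent filtering at 0.05, after the study's thresholds. The test was checked on simulated counts. Genes with means under 263 (low), 18.3 (medium) or 1.72 (high dose) got no adjusted p. At counts this deep, replicates differed by more than counting noise (chi-square per degree of freedom 1.99 to 3.55). Intervals and limits on counts cover counting error only or the fitted error of the model.

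The 8 genes, the pathway lists and the alternatives were chosen with earlier results of these data known. The rule named all 8 genes, the other ligands and receptors, the DEG with the largest rise and fall per list with a mean of at least 50, nearest patterns and neighbours. Other pathway genes were named after their values were seen. Some genes of the lists are not reported here. Same-numbered libraries deviated together between the low and medium dose groups but not against vehicle, so the numbers were not used to pair samples in comparisons with vehicle. Between medium and high dose they correlated at 0.0355 to 0.221 (different numbers -0.15 to 0.0981). The numbers were not used to pair samples there either, and a replicate block gave 16 pathway DEGs instead of 17. Alternatives were edgeR 4.0.16, other size factors, a filter of 10 counts in 3 libraries, a filtering level of 0.1, the 2 compared groups alone, a replicate block, another gene length and leaving out each library.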

Additional observations from a re-analysis of the deposited data

How the results depend on the processing

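The count of neurotrophin genes that met the thresholds stayed at 1, 1 and 0 in order from the high to the low dose under every alternative, and NGFR kept log2 fold changes of 4.74 to 4.86 at the high dose when single libraries were left out. With edgeR the pathway genes at the medium dose were 6 instead of 3, adding EDA2R, FOS and GDNF, and all genes were 809 instead of 537 at the medium dose and 30 instead of 11 at the low dose. The low dose count was 6 with the 2 compared groups alone. Leaving out single libraries gave low dose counts of 6 to 13, among them 7 without vehicle replicate 3 and 6 without low dose replicate 1 or 2. The cause was not tested. With the exon union as length, 8 of 12 levels moved by more than 1 SD, and NTF3 in vehicle was 3.32 instead of 5.36 TPM.

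Pairing by replicate number differed between groups: deviations of same-numbered libraries correlated at 0.124 to 0.193 for low and medium dose (different numbers -0.158 to -0.00635), at 0.0355 to 0.221 for medium and high dose, at -0.0191 to 0.135 for low and high dose, and at -0.118 to -0.00687 over 9 pairs with vehicle. With a replicate block, 26 pathway genes and 3297 of all genes were called at the high dose, and 16 pathway genes instead of 17 for high against medium dose. Of single genes, 14 values changed sign, all of values not called and at most 0.29 from 0 in size: NTF3 at the medium dose (0.11), NTRK3 at the medium (0.06) and low dose (0.03 and 0.21), SORCS2 at the low dose (0.01), RIPK2 at the low dose (0.03 and 0.00, range -0.06 to 0.03), DUSP6 at the low dose (0.00, range -0.12 to 0.00) and KIDINS220 at the medium dose (0.00, 0.01 and 0.03, range -0.02 to 0.03). Each was with 1 library left out, apart from KIDINS220 values of 0.00 with edgeR and with the 2 groups alone. Another 191 counts of called genes stayed within 1.5 times the main count. Depth limits NTRK2, NTRK3 and NRADDP, with at most 11 counts in a library. It also leaves low dose changes of genes with means under 263, NGFR among them, without an adjusted p in DESeq2.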

Other observations

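The GDNF family, a separate group of neurotrophic factors that signal through RET, had 6 of 9 genes tested at the high dose, of which 2 were DEGs (33.3%, beside 18.2% of all genes tested). GDNF itself rose, from 11.3, 5.26 and 9.37 normalised counts in vehicle to 32.4, 34.2 and 43.0 at the high dose (log2 fold change 2.10, SE 0.453, adjusted p = 1.31e-05 in DESeq2), with 14.7% of its exon bases overlapping GDNF-AS1 on the opposite strand. Its libraries did not overlap between the groups. GFRA2, a co-receptor of the family, fell by 1.31 (SE 0.464, adjusted p = 0.0116 in DESeq2), from means of 23.8 to 9.63. The median was -0.49 over the 5 genes of the list with a mean of at least 10 normalised counts, beside 0.00 over all such genes.

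Among 9 relatives of NGFR in the TNF receptor superfamily, 8 were tested at the high dose, of which 3 rose and 1 fell (50%, beside 18.2% of all genes tested). TNFRSF10B, a receptor of the death ligand TRAIL, had 1281, 1227 and 1238 normalised counts in vehicle, 2048, 2075 and 2060 at the medium dose and 5904, 6035 and 5725 at the high dose. This was 1.65-fold (log2 fold change 0.72, SE 0.0433, adjusted p = 2.13e-60 in DESeq2) and then 4.72-fold (2.24, SE 0.0407) above vehicle. TNFRSF10A (1.16, SE 0.241) and EDA2R (2.04, SE 0.507) also rose, the latter from a mean of 7.22. TNFRSF19, which can pair with RTN4R in place of NGFR, had 2308, 2368 and 2309 normalised counts in vehicle and 711, 767 and 730 at the high dose, and fell by 1.66 on the log2 scale (SE 0.0554, adjusted p = 9.08e-195 in DESeq2). The list's median was -0.06.

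Of 8 transcription regulators known to act on the BDNF gene, all tested at the high dose, 2 rose and 2 fell (50%, beside 18.2% of all genes tested). The median was 0.23 over the 7 with a mean of at least 10 normalised counts, which leaves out NPAS4. BHLHE40, a repressor, rose with a log2 fold change of 1.00 (SE 0.0307, adjusted p = 1.25e-231 in DESeq2), from 3344 to 6696 normalised counts by the means, and genes on the opposite strand overlap 12.8% of its exon bases. MEF2D rose by 0.80 (SE 0.061). MEF2C, of the same factor family, fell by 0.68 (SE 0.13, adjusted p = 7.72e-07 in DESeq2). The neuronal activity factor NPAS4 was called lower at a mean of 6.57 in vehicle, and edgeR did not test it.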
